A study of Mus musculus with 7 samples.

Results

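This report concerns the skeletal muscle program in the posterior second heart field (pSHF) of *Shh* mutant and wild-type mouse embryos. It follows 10 genes, the 4 myogenic regulatory factors *Myf5*, *Myf6*, *Myod1* and *Myog*, and 6 genes for parts of the contractile apparatus or the acetylcholine receptor of muscle, *Tnnc2*, *Mylpf*, *Acta1*, *Myh3*, *Chrna1* and *Chrng*. The members were chosen by gene name. All 13 gene probes carrying one of these names were taken, of 41174 gene probes on the array, and they stand for 10 of 21475 named genes. Tests covered the named probes that stood well above background on all arrays of the mutants, of the wild types or of both. These were 23127 probes of 14894 genes, among them 8 probes of 7 members. *Myf5*, *Myod1* and *Chrna1* did not pass. *Myf6*, *Myog* and *Chrng* passed only through the wild-type pools, since some of their mutant pools were not well above background, and *Tnnc2*, *Mylpf*, *Acta1* and *Myh3* were well above background on every array.

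The embryos came from crosses between Shh +/- parents of a mixed background (given in the labels as C56B/6 and CD-1), with superovulated females, and were collected at E9.5, when trunk myotomes are forming. Tissue of genotyped embryos was pooled, 4 pools of *Shh*-/- embryos (pools 1 to 4) and 3 pools of *Shh*+/+ embryos (pools 1, 3 and 4), and total RNA of each pool was read on 1 single-colour Agilent array. The mutant allele is present from fertilization in every tissue, so a change in the pSHF need not begin there. The number of embryos per pool is not given in the sources used here. The dissection kept the foregut and the adjacent ventral mesenchyme and removed the heart and the neural tube. Somites and their myotomes lie dorsal to this tissue, and the labels do not say how much of them a pool held.

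Skeletal muscle of the trunk arises from the somite. Sonic hedgehog from the notochord and floor plate patterns the ventral somite into sclerotome, the source of the vertebrae and ribs, and it also acts on the first myotomal cells. The dermomyotome, marked by *Pax3*, *Meox1* and *Dmrt2*, gives rise to cells that switch on *Myf5*, the earliest of the myogenic regulatory factors, basic helix-loop-helix proteins that bind the E-box CANNTG. *Myog*, *Myf6* and *Myod1* come on after *Myf5*. *Myog* drives terminal differentiation, in which cells make sarcomere proteins and the fetal acetylcholine receptor. In a pool of tissue, fewer muscle cells and less muscle RNA per cell cannot be told apart.

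The arrays behaved evenly enough to be compared. Between 59.96% and 70.63% of the probes were well above background on an array, median spot signals were 86.4 to 145.3 intensity units, and the normalized array medians spanned 0.180 log2 units. The targeted gene, *Shh*, had log2 signals of 9.22 to 9.67 in the mutant pools and 9.98 to 10.74 in the wild-type pools, a log2 change of -1.08 (limma's adjusted p = 0.0657). Where its probe lies relative to the deleted part of the gene is not given in the sources used here. *Hhip*, a Hedgehog target and antagonist, fell by 2.82 on the log2 scale (adjusted p = 0.00124). The pathway genes *Ptch1* and *Gli1* had log2 changes of -1.16 (limma's adjusted p = 0.142) and -1.02 (adjusted p = 0.0680) and were not called. The pSHF marker *Isl1* was well above background on every array. The arrays lay on 4 slides, of which 3 held the mutant and wild-type pools of the same number, the mutant always in the first position, so array position and genotype are confounded and cannot be told apart. The fourth slide held mutant pool 2, whose label records a possible leak.

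The promoters of the 4 members with the most negative log2 changes (given below, and of which only *Chrng* passed the test) are shown because the myogenic factors act through E-boxes such as those in muscle gene promoters. Each run holds 250 bases before and 50 after the RefSeq transcription start (GRCm38.p6), 5′ to 3′ on the gene's own strand, with every match to CANNTG in capitals. The windows are chr1:134289754-134290053 (plus strand) for *Myog*, chr2:164779685-164779984 (minus strand) for *Tnnc2*, chr1:87205561-87205860 (plus strand) for *Chrng* and chr11:67078050-67078349 (plus strand) for *Myh3*.
Myog: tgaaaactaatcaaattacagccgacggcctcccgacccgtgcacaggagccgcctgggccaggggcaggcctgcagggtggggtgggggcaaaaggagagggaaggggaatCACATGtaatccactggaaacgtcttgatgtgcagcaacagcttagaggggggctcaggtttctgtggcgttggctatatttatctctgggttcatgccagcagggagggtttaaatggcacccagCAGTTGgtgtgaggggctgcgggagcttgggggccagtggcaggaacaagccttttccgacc
Tnnc2: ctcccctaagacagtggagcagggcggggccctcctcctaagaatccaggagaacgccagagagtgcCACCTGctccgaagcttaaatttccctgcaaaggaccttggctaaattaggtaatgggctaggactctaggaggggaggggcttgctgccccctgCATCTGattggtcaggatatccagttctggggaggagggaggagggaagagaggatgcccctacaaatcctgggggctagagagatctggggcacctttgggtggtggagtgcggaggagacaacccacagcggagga
Chrng: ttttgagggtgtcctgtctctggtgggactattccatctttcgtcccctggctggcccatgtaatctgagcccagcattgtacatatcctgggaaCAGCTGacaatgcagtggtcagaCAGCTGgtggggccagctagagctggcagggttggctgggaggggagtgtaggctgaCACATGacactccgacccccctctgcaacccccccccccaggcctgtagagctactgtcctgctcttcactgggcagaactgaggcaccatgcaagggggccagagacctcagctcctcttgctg
Myh3: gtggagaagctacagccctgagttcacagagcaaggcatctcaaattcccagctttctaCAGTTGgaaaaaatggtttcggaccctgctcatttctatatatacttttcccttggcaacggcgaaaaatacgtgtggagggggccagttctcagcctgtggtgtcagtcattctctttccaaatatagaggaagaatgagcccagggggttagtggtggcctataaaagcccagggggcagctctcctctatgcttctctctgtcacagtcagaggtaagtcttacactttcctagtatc

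The RefSeq promoter table held 8 of the 10 members. The motif CANNTG reads the same on both strands and was found 2 times in the *Myog* and *Tnnc2* windows, 3 times in *Chrng* and 1 time in *Myh3*. It is common, since 72.3% of all 32851 promoter windows of this length hold at least 1 match and 39.6% hold 2 or more. The rarer form CAGCTG, which overlaps with CANNTG, occurred 2 times each in *Chrng* and *Chrna1* and 1 time each in *Mylpf* and *Acta1*, and 16.3% of all windows hold at least 1 and 1.9% at least 2. *Acta1* held 1 CArG box, the site of serum response factor (1.63% of all windows). The *Myf5* window held none of the E-box forms searched, which says only that these letters are absent from this stretch.

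Of the 4 regulatory factors, *Myog* and *Myf6* could be tested, and both had lower means in the mutants without passing adjustment over all probes. Both *Myf5* and *Myod1* were well above background on 0 of 7 arrays. A difference between groups compares background readings at the *Myf5* probe and readings at the edge of background at the *Myod1* probe. Neither is a sound measure of RNA levels.

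*Myf5*, the first factor of the program, is read by 1 probe spotted 10 times on each array (mm9, chr10:106919974-106920033, minus strand). In mutant pools 1 to 4 it read 3.41, 3.34, 3.32 and 3.43 on the log2 scale, and in wild-type pools 1, 3 and 4 it read 3.36, 3.38 and 3.30. The genotypes overlapped and no pool stood out. Averaged over its spots, the raw signal was 28.75 to 35.6 intensity units per array, and it lay below the 95th percentile of the 153 negative control spots (31.06 to 42.32) on all 7 arrays. The probe has a GC content of 15.0%, against a median of 40.0% over all probes, and 0.107% of probes are as poor in GC or poorer. Of the 44 such probes, 40 (90.9%) were well above background on no array and 0 on every array, against 24.8% and 57.1% of all probes. The level of *Myf5* RNA in these pools is therefore not measured by this array, in either genotype.

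*Myod1*, which with *Myf5* commits cells to the muscle fate, is also read by 1 probe in 10 spots (mm9, chr7:53633956-53634015, plus strand). Its log2 signals were 3.67, 3.40, 3.78 and 3.71 across mutant pools 1 to 4, compared with 3.86, 3.91 and 4.03 in wild-type pools 1, 3 and 4. The mutant pools were all below the wild-type pools, although no array passed the scanner software's test against background. Its mean raw signal, 32.59 to 42.97 units, exceeded the 95th percentile of the negative controls on 6 of 7 arrays, all but mutant pool 2. The group means differed by less than 0.3 on the log2 scale (two-sided exact permutation test over the 35 arrangements, p = 0.0571), and this compares signals at the edge of background.

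*Myog*, the factor of terminal differentiation, showed the widest contrast between pools (mm9, chr1:136188874-136188933, plus strand; 10 spots). Its log2 signals were 3.97, 4.32, 4.97 and 4.80 in mutant pools 1 to 4, of which pools 3 and 4 were well above background. In wild-type pools 1, 3 and 4 they were 7.66, 4.70 and 7.03, all well above background. Wild-type pools 1 and 4 were far above every mutant pool, while wild-type pool 3 lay below mutant pools 3 and 4. The mean was 4.51 ± 0.46 (SD, n = 4) in mutants and 6.46 ± 1.56 (SD, n = 3) in wild types, a log2 fold change of -1.95 (SE 0.61, limma's unadjusted p = 0.0111, adjusted p = 0.318). With every mutant array raised to at least the lowest signal called well above background on it, the difference was 3.12-fold instead of 3.86-fold. The spots of an array differed little, with SDs of 0.065 to 0.097 on the log2 scale.

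*Myf6*, a factor of the early myotome and of later fibres, gave a smaller change of the same shape (mm9, chr10:106930237-106930296, minus strand). The log2 signals were 4.55, 4.62, 4.77 and 4.54 across mutant pools 1 to 4, compared with 5.56, 4.83 and 5.44 in wild-type pools 1, 3 and 4. Only mutant pool 3 was well above background among the mutants, against all 3 wild-type pools, but the limit differed between arrays. The raw signal was 58.97 units in mutant pool 2, not called so, and 56.08 in wild-type pool 3, which was. On the normalized scale the groups did not overlap, but wild-type pool 3 exceeded the highest mutant pool by only 0.067. The log2 fold change was -0.66 (SE 0.18, limma's adjusted p = 0.205), or 1.58-fold, and 1.48-fold with the mutant arrays raised in the same way.

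**Figure D1:**
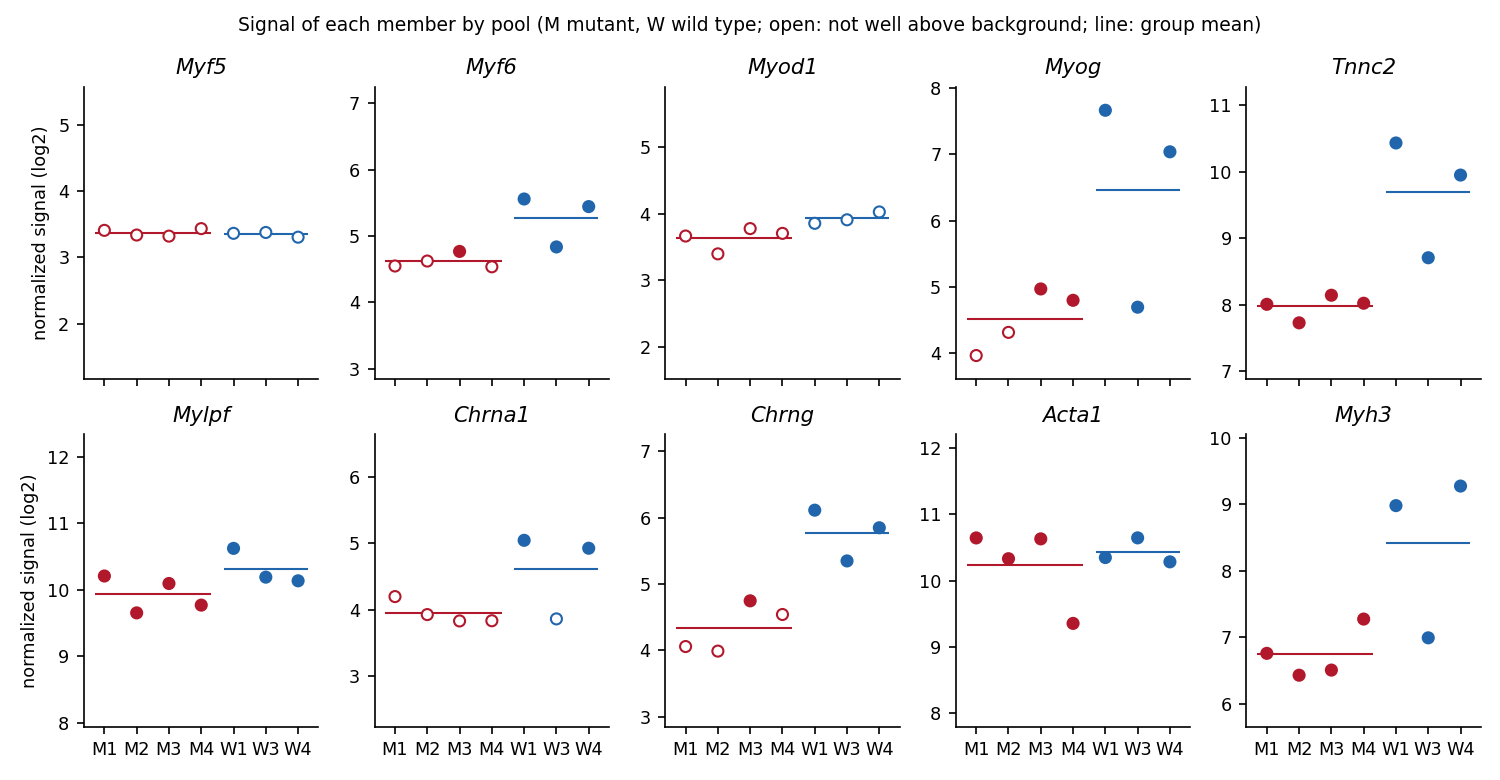
Normalized log2 signal (y axis) of the 10 members in each pool (x axis, M mutant and W wild type with the pool number), with filled points where the probe was well above background, open points where it was not, and a line at each group mean. *Myog*, *Tnnc2* and *Myh3* are high in wild-type pools 1 and 4 and lower in wild-type pool 3, *Myf5* is flat at 3.30 to 3.43, and *Mylpf* and *Acta1* overlap between genotypes.

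Among the sarcomere genes, *Tnnc2* and *Myh3* had large differences between the group means, and *Mylpf* and *Acta1* small ones. None of the 4 passed the adjusted threshold on all 7 arrays.

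*Tnnc2* encodes the calcium-binding troponin C of fast skeletal muscle (mm9, chr2:164602661-164602720, minus strand). Its log2 signals were 8.00, 7.72, 8.14 and 8.02 across mutant pools 1 to 4, compared with 10.43, 8.70 and 9.95 in wild-type pools 1, 3 and 4. It was well above background on every array, the mutant pools lay close together, and every one was below every wild-type pool. The log2 fold change was -1.72 (95% interval -2.51 to -0.94, limma's adjusted p = 0.0803), so the mutant mean was 30.3% of the wild-type mean. The exact permutation test, two-sided, gave its smallest possible p with 4 against 3 pools, 0.0286.

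*Myh3*, the embryonic myosin heavy chain of muscle fibres, is read by 2 probes that overlap. They are shown because their agreement is agreement over shared letters, the 32 of 60 bases in capitals, and not a second independent reading.
Myh3 A_51_P167668: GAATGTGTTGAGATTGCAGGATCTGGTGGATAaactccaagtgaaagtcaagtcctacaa
Myh3 A_52_P247953: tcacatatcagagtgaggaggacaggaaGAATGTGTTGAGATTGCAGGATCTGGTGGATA

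The first lies at chr11:66914857-66914916 and the second at chr11:66914684-66914888 (mm9, plus strand), the latter over 205 genomic bases, so that it crosses an exon junction. At the first probe the log2 signals were 6.76, 6.43, 6.50 and 7.27 across mutant pools 1 to 4, compared with 8.98, 6.99 and 9.27 in wild-type pools 1, 3 and 4. Wild-type pools 1 and 4 were above every mutant pool, and wild-type pool 3 lay within the mutant range. The log2 fold change was -1.67 (SE 0.49, limma's adjusted p = 0.272) at this probe and -1.53 (SE 0.47, adjusted p = 0.304) at the other.

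*Mylpf*, the regulatory light chain of fast myosin, is read by a probe that spans 237 genomic bases and so crosses an exon junction (mm9, chr7:134356749-134356985, plus strand). Its log2 signals were 10.21, 9.65, 10.10 and 9.77 across mutant pools 1 to 4, compared with 10.62, 10.19 and 10.14 in wild-type pools 1, 3 and 4. The genotypes overlapped, since mutant pool 1 exceeded wild-type pools 3 and 4. The log2 fold change was -0.39 (95% interval -0.79 to 0.02, limma's adjusted p = 0.678).

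*Acta1*, skeletal alpha actin, is also made by embryonic heart muscle (mm9, chr8:126416197-126416256, minus strand). Its log2 signals were 10.64, 10.33, 10.63 and 9.36 across mutant pools 1 to 4, compared with 10.35, 10.64 and 10.28 in wild-type pools 1, 3 and 4. Mutant pool 4 was low, and the other pools of both genotypes lay within 0.36 of each other. The log2 fold change was -0.19 (95% interval -0.85 to 0.48, limma's adjusted p = 1.00), and it was 0.11 without mutant pool 4. Cardiac actin, *Actc1*, was also lowest in mutant pool 4, at 13.99, against 14.20 to 15.36 in the other pools.

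Of the receptor genes, *Chrng* was the only member called at an adjusted p under 0.05. *Chrng* encodes the gamma subunit, which marks the fetal form of the muscle acetylcholine receptor (mm9, chr1:89108141-89108200, plus strand). Its log2 signals were 4.06, 3.99, 4.75 and 4.54 across mutant pools 1 to 4, compared with 6.11, 5.35 and 5.85 in wild-type pools 1, 3 and 4. All wild-type pools were well above background and above every mutant pool, of which only pool 3 was well above background. The log2 fold change was -1.43 (SE 0.24, limma's adjusted p = 0.0431), or 2.70-fold, and 2.09-fold with the mutant arrays raised to at least their lowest signal called well above background. The call was lost when any 1 of the 7 arrays was left out (adjusted p = 0.0609 to 0.205) and with the replicate block, which compares pools within a slide (log2 fold change -1.32, adjusted p = 0.127). Under quantile normalization the change was -0.59. The second *Chrng* probe (mm9, chr1:89106072-89106353, plus strand) was well above background on 1 of 7 arrays, wild-type pool 4, and was not tested.

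*Chrna1*, the alpha subunit, which binds acetylcholine, has 2 probes and neither was tested. At the brighter one (mm9, chr2:73404112-73404171, minus strand) the log2 signals were 4.20, 3.93, 3.83 and 3.84 across mutant pools 1 to 4, compared with 5.05, 3.86 and 4.93 in wild-type pools 1, 3 and 4. Wild-type pools 1 and 4 were well above background there, and wild-type pool 3 was not and lay inside the mutant range. The other probe (mm9, chr2:73401390-73401449, minus strand) was well above background on 0 arrays, with log2 signals of 3.63 or less.

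Each gene was counted once, at its probe with the highest mean. Among the 7 tested members 1, *Chrng*, was called lower at an adjusted p under 0.05 (0.29% of all 23127 probes) and 0 were called higher (0.259%). At an unadjusted p under 0.05, 5 of the 7 were lower (3.98% of all probes), and in *Myf6*, *Tnnc2* and *Chrng* the mutant pools were all below the wild-type pools, as at 3.55% of the 23025 probes measured on all 7 arrays. Neither the negative sign of the 7 changes nor these counts support anything by themselves. *Myf6*, *Myog* and *Chrng*, the last being the only member called, entered through the group in which they were high. Without the filter limma's adjusted p of *Chrng* was 0.0979. With no filter on dim probes, 9 of all 10 members had a negative change, against 44.4% of 34747 probes, and limma called 0 lower (0.0662% of probes), with 7 at an unadjusted p under 0.05 (3.47% of probes lower). The mutant pools were then all below the wild-type pools in 4 of 10, *Myf6*, *Myod1*, *Tnnc2* and *Chrng*, against 3.21% of 34499 probes, and several of these readings were at background. These shares are not independent evidence, because the study listed 4 of the 10 members, *Myog*, *Tnnc2*, *Mylpf* and *Chrng*, in a signature chosen on these samples. The study used another test with its own limits, and *Myog*, *Tnnc2* and *Mylpf* were not called here. Of the 4 members well above background on every array, the changes were -1.72, -1.67, -0.39 and -0.19, and the median over all probes was 0.02.

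**Figure D2:**
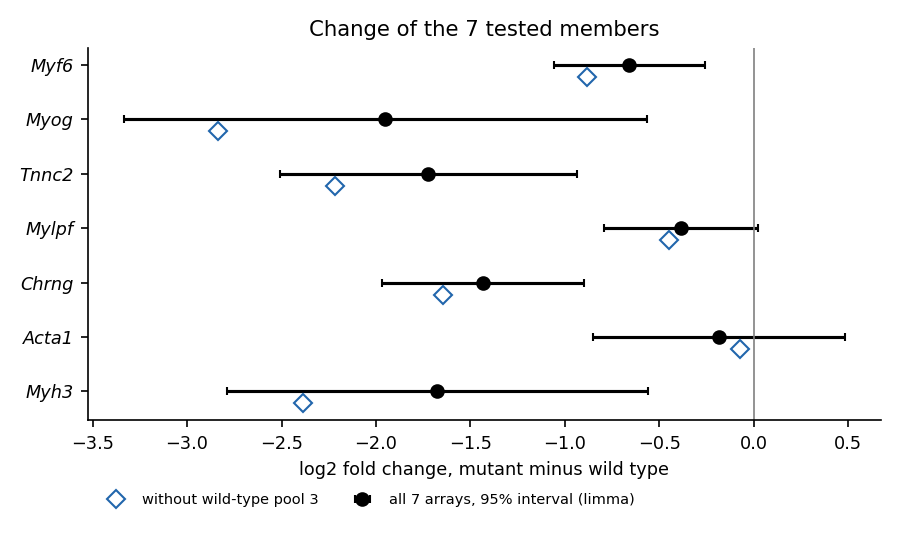
Log2 fold change (x axis, mutant minus wild type) of the 7 tested members, with the limma estimate and its 95% interval from all 7 arrays (black) and the estimate without wild-type pool 3 (open diamonds). The changes of *Myog*, *Tnnc2* and *Myh3* are -1.95, -1.72 and -1.67 on all arrays and -2.83, -2.22 and -2.39 without that pool, whereas *Acta1* stays near 0.

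The comparison of *Myf5* with the later genes has no usable reference, since the *Myf5* probe reads background. For the record, the group means at that probe differed by 0.03 on the log2 scale. When its signal was subtracted array by array from every probe, 0 of the 7 other members differed from it at limma's adjusted p under 0.05, and 6 of 7 had an unadjusted p under 0.05. The difference was -1.98 for *Myog* (SE 0.63, adjusted p = 0.378), -1.75 for *Tnnc2* (SE 0.36, adjusted p = 0.114) and -1.46 for *Chrng* (SE 0.25, adjusted p = 0.0648). These differ by 0.03 from the changes of the genes themselves. Scaling by the 75th percentile called 4 of the 7 differences. Such counts largely restate the genes' own changes, have no share over all probes beside them here, and are no result about *Myf5*. The data thus give no order in which the factors were affected.

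Several of the muscle genes differed widely between the wild-type pools. Over all tested probes the median SD was 0.16 between the 3 wild-type pools and 0.18 between the 4 mutant pools. *Myog* had an SD of 1.56 between wild-type pools, the 5th largest of 23097 probes with a value in all of them. The *Myh3* probes ranked 16 and 19 and *Tnnc2* 81. Between mutant pools the same genes were closer together, with SDs of 0.46 for *Myog*, 0.38 and 0.28 for the *Myh3* probes and 0.18 for *Tnnc2*. *Chrng* and *Mylpf* had nearly equal SDs in the genotypes (0.39 and 0.37, and 0.27 and 0.26), and *Acta1* had the reverse, 0.19 in wild types and 0.61 in mutants.

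**Figure D3:**
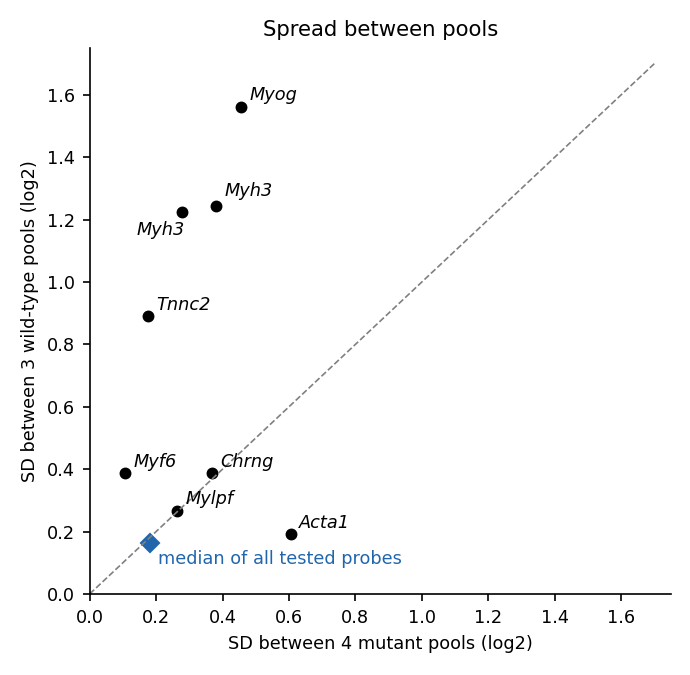
SD of the normalized log2 signal between the 4 mutant pools (x axis) and between the 3 wild-type pools (y axis) for the 8 tested member probes, with the median over all tested probes as a diamond and equality as the dashed line. *Myog*, both *Myh3* probes, *Tnnc2* and *Myf6* lie far above the line, and *Acta1* below it.

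In 5 of the 7 tested members wild-type pool 3 was the lowest wild-type pool, as at 20.7% of all probes, and in 5 of 7 wild-type pools 1 and 4 both exceeded every mutant pool, as at 5.42% of all probes. The 5 were the same in both counts, and 3 of them, *Myf6*, *Myog* and *Chrng*, passed the filter only through the wild-type pools. That favours high wild-type values, so the second count supports nothing by itself. The gaps to wild-type pool 3 were 2.96 and 2.34 log2 units for *Myog* in pools 1 and 4, 1.99 and 2.28 for *Myh3* (its brighter probe), and 1.73 and 1.24 for *Tnnc2*. Among all tested probes, 34 probes of 32 genes (0.147%) had wild-type pools 1 and 4 both more than 1 log2 unit above pool 3, a limit chosen after the values were seen. In the opposite direction, 23 probes of 21 genes (0.0995%), with 0 members, had both more than 1 log2 unit below pool 3. Of the 34 probes, *Myog* and both *Myh3* probes had the 3 largest gaps. *Tnnc2*, the dermomyotome gene *Dmrt2* and the sarcomere gene *Neb* were also among the 34.

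Others of the 34 probes read blood or macrophage genes, such as *Hbb-b1*, a beta globin, *Tyrobp*, *Aif1* and *Ctss*. *Tyrobp* had log2 signals of 6.75 to 8.27 in mutants, 7.22 and 6.94 in wild-type pools 1 and 4, and 5.50 in wild-type pool 3, which was below every mutant pool. *Hbb-b1* ran from 11.48 in mutant pool 3 to 13.38 in mutant pool 2, and it was 11.45 in wild-type pool 3, so both pools of slide 3 were low. *Aif1* was also lowest in pool 3 of each genotype, at 5.71 in mutants and 4.99 in wild types. These genes were picked for being low in wild-type pool 3, and their part in the muscle values was not tested.

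Without wild-type pool 3, 3 members were called lower, *Myog* (log2 fold change -2.83, limma's adjusted p = 0.0174, 7.13-fold, or 5.75-fold with the mutant arrays raised to their lowest signal called well above background), *Tnnc2* (-2.22, 4.65-fold, adjusted p = 0.00909) and *Myh3* (-2.39, 5.23-fold, adjusted p = 0.0143), against 0.125% of all probes. *Chrng* was then at -1.65 with an adjusted p of 0.0609. These 4 arrays against 2 are no cleaner a sample of the genotypes than all 7, because the pool was singled out after its values were seen. Leaving out mutant pool 2, whose array may have leaked, moved *Myog* to -1.88, *Tnnc2* to -1.64, *Myh3* to -1.57 and *Chrng* to -1.32, the last no longer called (adjusted p = 0.106).

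Within slides the difference was uneven in the same way. On slide 1 the mutant pool lay below its wild-type neighbour by 3.69 for *Myog* (a difference of -3.69), and the differences were -2.43 for *Tnnc2*, -2.22 for *Myh3* and -2.05 for *Chrng*. Mutant pool 1 was not well above background for *Myog* and *Chrng*, and raised to its lowest signal called so the differences on slide 1 were -3.00 and -1.45. On slide 4 the differences of *Myog*, *Tnnc2*, *Myh3* and *Chrng* were -2.24, -1.93, -2.0 and -1.31. On slide 3, which carries wild-type pool 3, they were 0.27, -0.56, -0.49 and -0.60. Thus *Tnnc2*, *Myh3* and *Chrng* were lower in the mutant on all 3 slides and *Myog* on 2 of 3. *Myf6* was at -1.01, -0.07 and -0.91 on slides 1, 3 and 4.

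**Figure D4:**
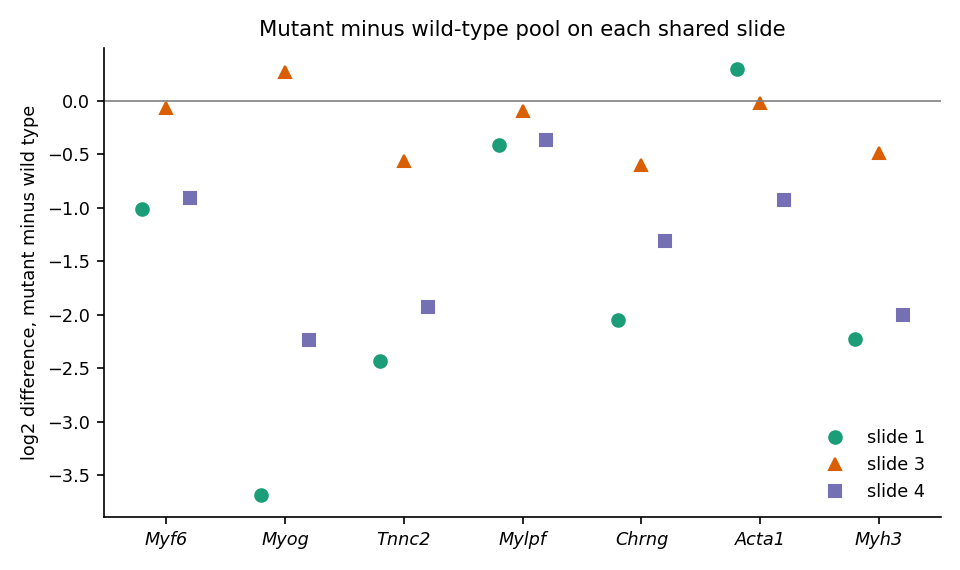
Log2 difference (y axis, mutant minus wild-type pool) on each of the 3 slides that held both genotypes, for the 7 tested members (x axis). The slide 3 differences run from -0.60 to 0.27, while those of *Myog*, *Tnnc2*, *Myh3* and *Chrng* on slides 1 and 4 run from -3.69 to -1.31.

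Genes upstream of the factors had mostly negative changes, as the members did, without any call. Of 12 genes of the dermomyotome and the network above the factors, 11 were tested and 10 of these had a negative change, with a median of -0.71. None was called, and 8 had an unadjusted limma p under 0.05. Over all 23127 tested probes, 10279 had a negative change and 1843 an unadjusted limma p under 0.05 in either direction. *Eya1*, a coactivator of homeobox proteins, had log2 signals of 10.48 to 10.97 in mutants and 12.06, 11.55 and 11.35 in wild-type pools 1, 3 and 4, without overlap (log2 fold change -1.04, adjusted p = 0.0648). *Dmrt2*, a dermomyotome factor, had the largest change of the list, -1.32, with an SD of 0.88 in wild types and 0.90 in mutants (adjusted p = 0.520). *Meox1*, a homeobox gene of the somite, was at -1.10 (adjusted p = 0.105). The summed signal of the list on the linear scale was 6566 to 9244 in mutant pools and 9404 to 15110 in wild-type pools.

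The 21 other genes of skeletal muscle differentiation had changes of both signs. Of the 14 tested, 4 had a negative and 10 a positive change, with a median of 0.15, and 0 were called in either direction. At an unadjusted limma p under 0.05 there were 6, against 1843 of all 23127 tested probes. *Neb*, the giant protein of the thin filament, was at -0.85 (adjusted p = 0.242), with 4.13 to 4.40 in mutants and 5.48, 4.46 and 5.48 in wild-type pools 1, 3 and 4, the pool pattern of *Myog*. *Stac3*, a protein of excitation-contraction coupling, was at -0.74 (adjusted p = 0.522), and *Cdh15*, the cadherin of muscle precursors, at -0.73 (adjusted p = 0.351). The genes with positive values included *Tnni1* (0.38, limma's adjusted p = 0.840), *Actn3* (0.37, adjusted p = 0.591), *Tnnt3* (0.30, adjusted p = 0.580) and *Des* (0.25, adjusted p = 0.859). *Myl1*, *Tnni2* and *Myh8* were also positive, at 0.37, 0.25 and 0.22. *Tnni1* and *Des* are also made by embryonic heart muscle, and the source of these signals was not tested.

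Markers of heart and smooth muscle had mostly positive changes, without any call. Of 13 cardiomyocyte genes, all tested, 12 had a positive change and 1, *Nkx2-5*, a negative one, with a median of 0.24. Over all 23127 tested probes, 12848 had a positive change. None was called and 0 had an unadjusted limma p under 0.05. *Myl2*, the ventricular regulatory light chain, had the largest change (1.24, adjusted p = 0.668), followed by *Myl4*, an atrial light chain (0.33, adjusted p = 1.00). For 0 of the 13 were wild-type pools 1 and 4 both above wild-type pool 3, against 20.7% of all probes. The heart genes were strongly expressed in these pools although the heart was removed, with *Myl7*, another atrial light chain, at 16.78 to 17.36 on the log2 scale, and their summed signal was 278700 to 442700 in mutants and 230100 to 360600 in wild types. The 6 smooth muscle genes had a median of 0.23 with 0 called (limma; 0 at an unadjusted p under 0.05), and *Tagln*, an actin-binding protein, had the largest change (0.38, adjusted p = 0.756), followed by *Myh11*, the smooth muscle myosin heavy chain (0.34, adjusted p = 1.00). Of these 6, *Myocd* had a negative change (-0.19), and in 1, *Myh11*, wild-type pools 1 and 4 were both above wild-type pool 3 (5.89 and 6.42 against 5.76).

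**Figure D5:**
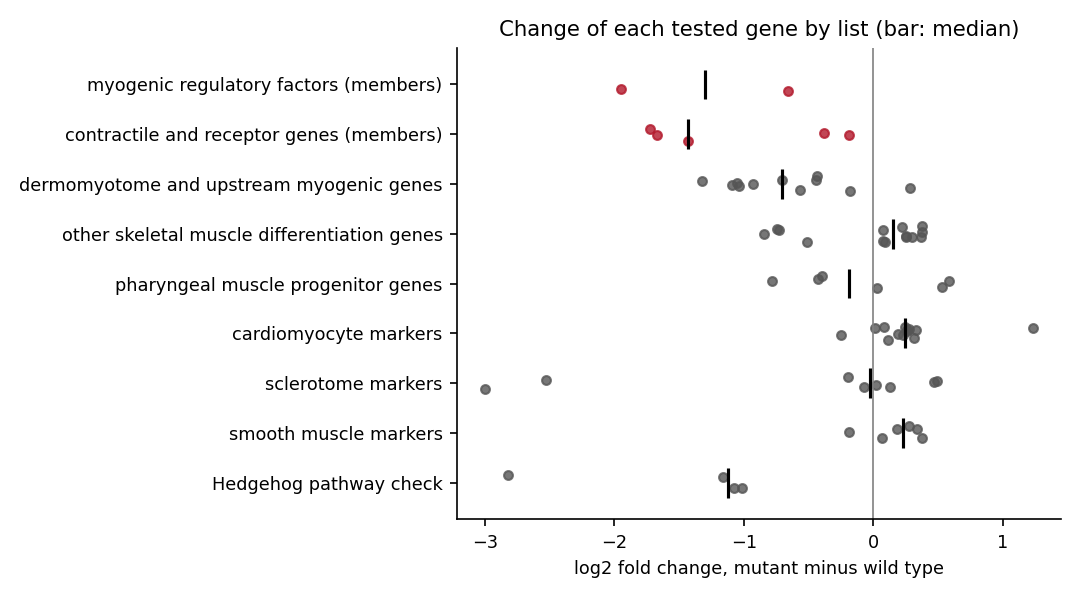
Log2 fold change (x axis, mutant minus wild type) of every tested gene in each list (y axis), with a bar at the list's median and the members in red. The dermomyotome genes have a median of -0.71, the other muscle differentiation genes 0.15 and the cardiomyocyte markers 0.24.

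Of 8 sclerotome genes tested, *Pax1* and *Pax9*, paired box factors of the ventral somite and, for both, of the pharyngeal pouches, were called lower, at -3.00 (limma's adjusted p = 0.0418) and -2.53 (adjusted p = 0.0353). Both calls were lost with the replicate block (adjusted p = 0.123 and 0.0538). *Pax9* was well above background in 1 of 4 mutant pools, and its change was -2.01 with the mutant arrays raised to their lowest signal called so. The others had changes of -0.20 to 0.49, and the median of the list was -0.03. *Pax9* had log2 signals of 7.06, 7.05 and 6.42 in wild-type pools 1, 3 and 4, all above every mutant pool. *Pax1* was at 8.75 in wild-type pool 3, its lowest wild-type pool, against 5.32 to 7.17 in mutants. In wild-type pool 3, where *Myog* and *Myh3* lay within the mutant range, *Pax1* and *Pax9* lay above it. However, *Pax1* and *Pax9* were named because they were called lower, which itself favours wild-type values above the mutants. Their values in wild-type pool 3 are therefore no evidence about that pool or about the muscle genes. Among 6 genes of pharyngeal muscle progenitors, the other source of skeletal muscle near the heart, 3 had negative and 3 positive changes. None was called, and 4 had an unadjusted limma p under 0.05, against 1843 of all 23127 tested probes. *Tbx1* had the largest change, -0.78 (limma's adjusted p = 0.307).

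The genes most like *Myog* over the 7 arrays, by Pearson's correlation with its probe and leaving out members, were *Zfp384* (r = 0.991), *Arpp21* (0.982), *Lgr6* (0.966), *4930500J02Rik* (0.962) and *Rrp7a* (0.960). Their own log2 changes ran from -0.17 for *Zfp384* to -0.69 for *Lgr6*, with limma's adjusted p from 0.138 to 0.912. Among the members r was 0.970 for *Myf6*, 0.960 for *Tnnc2*, 0.937 for *Myh3*, 0.905 for *Chrng*, 0.633 for *Mylpf* and -0.07 for *Acta1*. The 7 points share slides in pairs, apart from mutant pool 2. *Myog* was high only in wild-type pools 1 and 4, so r mainly follows those pools. The spread of r over all tested probes is not given here, so these values cannot be called unusual.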

How the data were processed

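RNA of 4 mutant and 3 wild-type pSHF pools (E9.5) was hybridized to 1 single-colour array per pool. The authors deposited scan files with mean signal and local background per spot as intensity, read by Agilent Feature Extraction 10.5.1.1, on a design annotated to mm9. They also deposited normalized log2 values, whose column medians differ between arrays. Per the paper's methods, outlier spots were removed and signals were background corrected and normalized by VSN.

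Mean signals were corrected by normexp from 153 negative control spots (offset 50), outlier spots (155 to 206 per array) were dropped, spots of a probe averaged, and arrays normalized with a rewritten VSN (5 strata, 7 iterations, 0.9 of the probes kept when trimming), whose convergence tolerance was tightened after first results were seen. Genotypes were compared with limma 3.58.1 in R 4.3.3, with Benjamini-Hochberg adjustment over 23127 probes. With 7 arrays, their number limits the precision. Sequences came from RefSeq (GRCm38.p6) and from the array files.

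The members and lists were chosen with earlier results of these data known. Named were every member probe, each list's called genes or else its 2 largest changes (1 such gene is not reported here, and some others were added after their values were seen), and the 5 genes most correlated with *Myog*. The pool limit of 1 log2 unit was also set after seeing the data. Nothing in the labels says that pools came from separate litters, so p-values measure the spread between these pools.

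The pool number marks a shared slide in the labels. Deviations from the genotype means correlated at 0.192, 0.239 and 0.0328 within slides 1, 3 and 4, so slide was tried as a replicate block. Other alternatives were quantile and 75th percentile scaling, the authors' values, uncorrected signals, dim probes included, outlier spots kept, SAM, slide as a random block, each array left out, and probe means. On 23025 simulated probes with 200 changed, limma called 65% of log2 changes of 1 and 96% of changes of 2. Of its calls, 6.4% were false. The changed probes were drawn at random from the tested probes, and each had the same SD in both genotypes. These shares therefore do not apply to *Myog*, *Tnnc2* and *Myh3* (its brighter probe). Their wild-type SDs were 1.56, 0.89 and 1.24, against a median of 0.16 over all tested probes. Figures were drawn with matplotlib 3.10.9.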

Additional observations from a re-analysis of the deposited data

How the results depend on the processing

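The sign of the change of *Myf6*, *Myog*, *Tnnc2*, *Mylpf*, *Chrng* and *Myh3* was negative under all 18 alternatives, and that of *Acta1* under 17, being 0.11 without mutant pool 4 and -0.32 to 0.11 over all single arrays left out. SAM and the run without the filter could not change a sign, because they use the main values. Probe means also equal the main values, except for *Myh3*, the only member with more than 1 tested probe. The replicate block gave the same changes as leaving out mutant pool 2, whose slide held no wild-type pool. The 18 alternatives are therefore not 18 separate checks. The authors' values as deposited were shifted, with a median change of -0.54 over all probes. Calls were not stable. Of the 7 tested members 1 was called lower, and the count was 0 under quantile normalization, 75th percentile scaling, no background correction, the authors' values (as deposited or set to 1 median per array, the latter added after seeing the data), no filter on dim probes and the replicate block, 2 with SAM (*Chrng* and *Tnnc2*), and between 0 and 3 with 1 array left out, 3 only without wild-type pool 3. *Chrng* was called under 4 of 18 alternatives, SAM, outlier spots kept, slide as a random block and probe means. Across the alternatives that kept all arrays, the log2 fold change ran from -2.34 to -0.95 for *Myog*, -2.38 to -1.59 for *Tnnc2*, -2.24 to -1.40 for *Myh3* and -1.80 to -0.59 for *Chrng*. The differences from *Myf5* went from 0 called to 4 with 75th percentile scaling and 1 with probe means, and to between 0 and 3 with 1 array left out; the authors' table as used here did not hold the *Myf5* probe. In the lists, the regulatory factors had between 0 and 1 called with 1 array left out, and the contractile and receptor members, 1 in the text, had 0 under the alternatives that lost the *Chrng* call and between 0 and 2 with 1 array left out. The dermomyotome list had 1 called under quantile normalization and under no background correction, and other muscle genes had between 0 and 1 with 1 array left out. Sclerotome markers, 2 in the text, had 0 under 75th percentile scaling, both forms of the authors' values, no filter and the replicate block, and between 0 and 1 with 1 array left out. The Hedgehog genes, 1 in the text, had 0 in both forms of the authors' values, 3 with slide as a random block and between 1 and 2 with 1 array left out. Over all probes, limma called 67 lower and 60 higher, against 36 and 18 with 75th percentile scaling, 23 and 10 without the filter, 135 and 128 with SAM, 99 and 105 with probe means, 10 and 1 with the replicate block, and 12 to 59 and 0 to 77 with 1 array left out. It called 0 in the authors' values, as deposited (28 at an unadjusted p under 0.05, with a median change of -0.54 over all probes) and at 1 median (1038 at an unadjusted p under 0.05). The causes were not tested. Signals near background limit *Myf5*, *Myod1*, *Chrna1* and the mutant values of *Myf6*, *Myog* and *Chrng*.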
